A study of Homo sapiens with 2 samples.

Results

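B2M and 8 genes of peptide presentation by MHC class I (HLA-B, HLA-C, HLA-E, HLA-F, TAP1, TAP2, TAPBP and NLRC5) were examined in RNA-seq gene counts of H460, a human large-cell lung cancer line. These 9 genes, among 22965 in the count files, were found by matching Ensembl identifiers to symbols. They were chosen by the log2 ratios of these same libraries, in which B2M was higher apart from its partners, so the values of this contrast that follow are a description and carry no test. The compared cells were H460 overexpressing PKP2, delivered by the pSin-puro vector, and H460 carrying the vector, both at passage 5, with 1 library per group. Both groups thus share the vector backbone. PKP2 encodes plakophilin 2, a desmosomal plaque protein, and the study asked which genes lie downstream of it.

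A class I molecule is a membrane-spanning heavy chain, encoded by an HLA gene, held together with the soluble light chain beta-2-microglobulin, the product of B2M, and a short peptide. Peptides made in the cytosol by proteasomes enter the endoplasmic reticulum through the transporter formed by TAP1 and TAP2, and tapasin, the product of TAPBP, bridges that transporter to empty class I molecules. NLRC5 is a transactivator of class I promoters, which also respond to interferon and NF-kB signalling, and loss of B2M or of the transporter is a known route by which tumours lose surface class I.

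The promoters of these genes share short elements, shown here because the members are known for joint control through them while B2M stood apart from its partners in these libraries. RefSeq promoter windows of build GRCh38.p14, from 250 bases before to 50 bases after the annotated start, were matched by symbol for 7 of the 9 members. HLA-E and NLRC5 had no matched window. The interferon response element was searched as GAAANNGAA and as GAANNGAAA, the NF-kB site by its consensus, the cyclic AMP response element (CRE) half-site as TGACG and the CCAAT box as CCAAT, all on both strands. Capitals mark every match.
B2M, chr15:44711267-44711566, plus strand: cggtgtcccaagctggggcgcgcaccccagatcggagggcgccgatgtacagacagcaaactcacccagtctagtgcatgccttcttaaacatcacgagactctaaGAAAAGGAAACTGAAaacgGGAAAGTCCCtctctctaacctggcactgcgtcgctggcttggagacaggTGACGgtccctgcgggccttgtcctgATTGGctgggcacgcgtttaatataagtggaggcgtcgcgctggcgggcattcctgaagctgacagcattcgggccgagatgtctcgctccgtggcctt
HLA-B, chr6:31357130-31357429, minus strand: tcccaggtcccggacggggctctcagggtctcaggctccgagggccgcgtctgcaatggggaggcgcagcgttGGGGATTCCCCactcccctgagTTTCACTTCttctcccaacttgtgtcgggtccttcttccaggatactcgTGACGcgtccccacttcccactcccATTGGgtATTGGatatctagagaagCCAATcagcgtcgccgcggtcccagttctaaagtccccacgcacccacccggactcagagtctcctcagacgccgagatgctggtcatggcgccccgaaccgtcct
HLA-C, chr6:31272043-31272342, minus strand: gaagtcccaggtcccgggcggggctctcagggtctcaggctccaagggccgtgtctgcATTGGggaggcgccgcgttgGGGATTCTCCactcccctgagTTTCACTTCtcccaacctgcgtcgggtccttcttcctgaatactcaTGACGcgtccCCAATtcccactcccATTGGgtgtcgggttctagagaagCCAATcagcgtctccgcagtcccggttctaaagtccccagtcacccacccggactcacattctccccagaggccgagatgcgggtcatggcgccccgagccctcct
TAP1, chr6:32853655-32853954, minus strand: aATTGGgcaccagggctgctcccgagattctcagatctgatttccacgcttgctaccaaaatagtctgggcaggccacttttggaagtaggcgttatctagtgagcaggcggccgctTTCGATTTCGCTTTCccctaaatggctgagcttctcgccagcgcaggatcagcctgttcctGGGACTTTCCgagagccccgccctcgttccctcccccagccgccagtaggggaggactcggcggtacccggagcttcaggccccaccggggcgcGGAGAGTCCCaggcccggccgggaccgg

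In the B2M window GAAANNGAA matched at 2 overlapping places, 144 and 138 bases before the start, the NF-kB consensus 125 bases before it, TGACG 75 bases before it and CCAAT 49 bases before it. HLA-B and HLA-C held GAANNGAAA 155 and 151 bases before their starts, and TGACG 106 and 105 bases before them. Among the 7 windows, GAAANNGAA was present in 5 (B2M, HLA-F, TAP1, TAP2 and TAPBP), against 8.11% of all 35116 RefSeq windows of this length. GAANNGAAA was in 3 (HLA-B, HLA-C and TAP2, where it overlaps the first form), against 7.66% of all windows. Each of the 7 windows thus matched at least 1 of these forms. The share of all windows that match either form was not computed, so nothing is read from that count. The NF-kB consensus was in 5 (B2M, HLA-B, HLA-C, TAP1 and TAPBP), against 11.3% of all windows, and in HLA-B its 4 matches overlap each other. TGACG was in 4 (B2M, HLA-B, HLA-C and TAP2), against 24.6%, and CCAAT in 5 (B2M, HLA-B, HLA-C, HLA-F and TAP1), against 34.6%. Each element matched in the B2M window was thus matched in some of the partner windows, but none in all of them. Whether these elements bear on the ratios was not tested.

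The PKP2 library held 20319137 counts and the vector library 23513304. PKP2 itself had 1330 counts in the PKP2 library and 181 in the vector library, a log2 ratio of 3.11, as its label says. Log2 ratios throughout divide the PKP2 library by the vector library, in CPM (counts relative to the scaled library size), and their 95% intervals are exact binomial intervals that cover counting error only. With 1 library per group no ratio has a replicate check. A gene was described as 2-fold higher or lower when it had a mean of at least 10 counts and a log2 ratio of at least 1 or at most -1, and all 9 members passed that count minimum. Of 5 measured epithelial markers 1 was above and 4 were below 0, with a median log2 ratio of -0.57. KRT19, the 1 above 0, had 11645 counts in the PKP2 library and 6501 in the vector library (log2 ratio 1.08). KRT8 had 9369 and 16537 (-0.58), and KRT7 was at -0.76 (interval -1.16 to -0.38). EPCAM was at -0.57 with only 16 and 28 counts in the PKP2 and vector libraries. Its interval of -1.56 to 0.37 takes in 0. CDH1 was not analysed here.

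B2M was the only member past 2-fold, with 1 of 9 members higher by that much and none lower. Across all 15991 genes at the count minimum, 2.46% were 2-fold higher or more and 4.61% were 2-fold lower or more. The contrast chose B2M, so nothing is read from that count. The 9 members had a median log2 ratio of 0.01, against -0.03 over all genes, and 4 of them lay below 0, where 52.7% of all genes did.

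B2M (ENSG00000166710) had 5206 counts in the PKP2 library and 1879 in the vector library. That is 259 CPM in the PKP2 library (exact Poisson interval 252 to 266) and 79.2 CPM in the vector library (interval 75.7 to 82.9). The PKP2 library was 3.26-fold higher (interval 3.10 to 3.44), a log2 ratio of 1.71 (interval 1.63 to 1.78), and the intervals of the libraries' levels lay far apart. No other gene of the files overlaps a B2M exon, and 1.45% of the 31-base stretches of its transcripts occur in another listed gene, so its counts depend little on how shared reads were assigned.

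**Figure D1:**
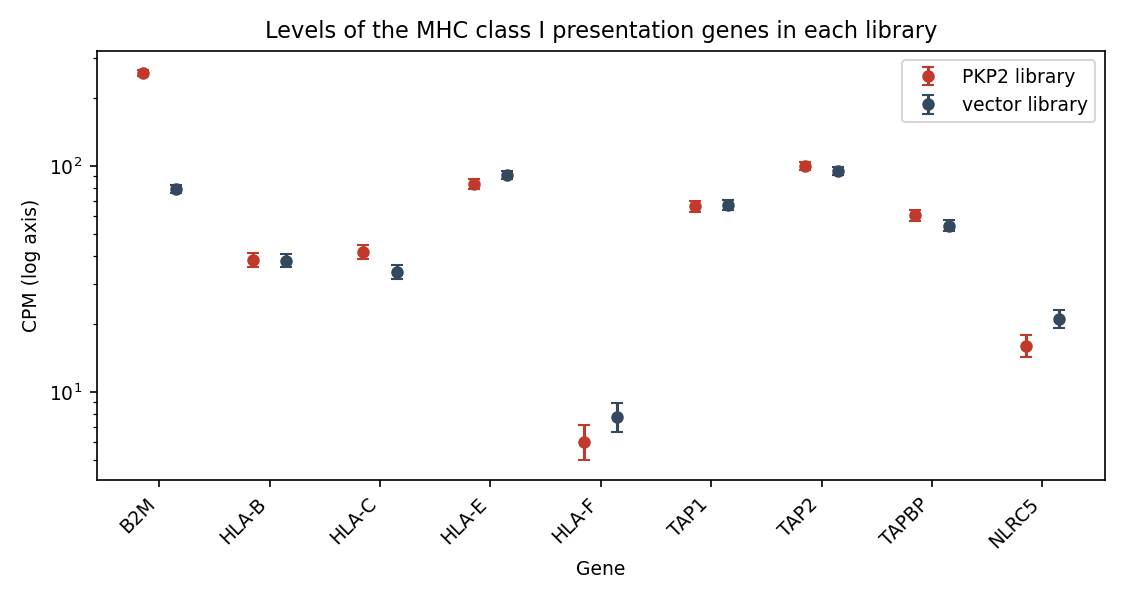
Levels of the 9 members in CPM on a log axis, with 1 point per library (PKP2 left, vector right) and exact 95% Poisson intervals as bars. B2M stood at 259 CPM in the PKP2 library and 79.2 CPM in the vector library, while the other genes had points closer to each other. The intervals of the libraries did not overlap for HLA-C, for NLRC5 and, by a small margin, for HLA-E.

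Few genes of a like level had a like ratio. Of the 2275 genes whose mean CPM lay within 2-fold of that of B2M, 2 had a ratio as high or higher, and the middle 95% of them had log2 ratios of -0.58 to 0.66. Its ratio ranked 8 among the 4845 genes with mean counts of 1000 or more, and 93 among all 15991 genes.

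**Figure D2:**
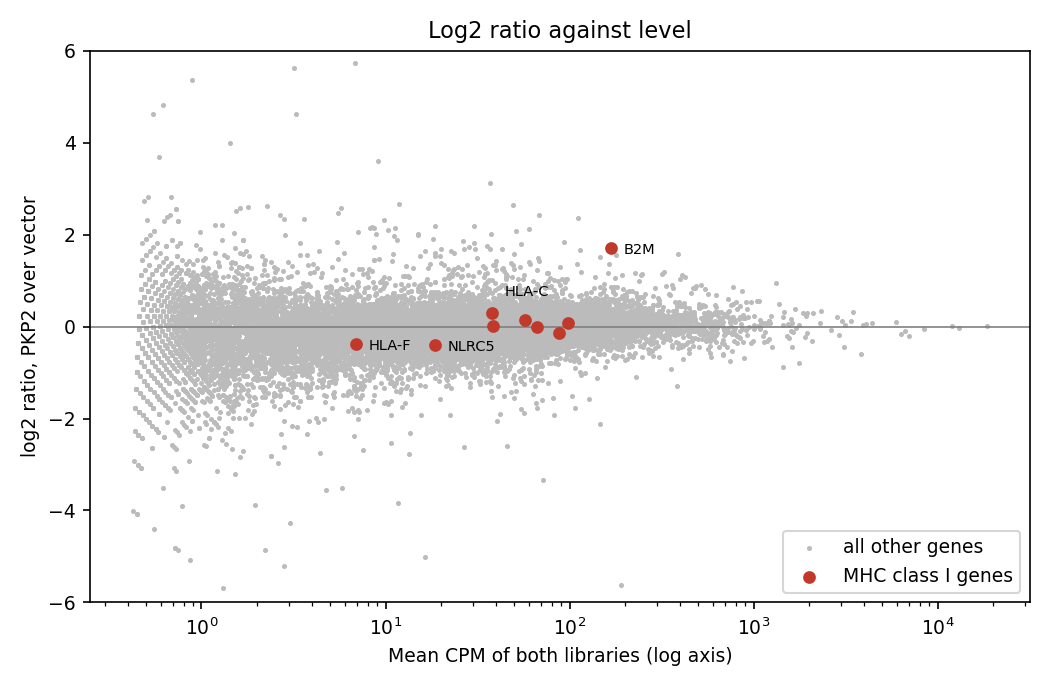
Log2 ratio, PKP2 over vector, against the mean CPM of both libraries on a log axis, with 1 point per gene at a mean of at least 10 counts and the 9 members in red. B2M lies at 1.71, above nearly all genes of its level, and the other members lie between -0.39 and 0.30. The axis leaves out 2 points beyond its ends and 14 genes at 0 in 1 library.

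The 5 genes of like level with the ratios nearest to that of B2M were SAR1A, OIP5-AS1, SLC2A13, SEPTIN11 and KIAA1191, by the absolute difference in log2 ratio over the 2 libraries. SAR1A, a small GTPase that starts the budding of transport vesicles from the endoplasmic reticulum, had 3516 counts in the PKP2 library and 1296 in the vector library, a ratio of 1.68. OIP5-AS1, a long non-coding RNA, had 2920 and 966 counts, a ratio of 1.83. SLC2A13, a proton-coupled inositol transporter, had 5344 and 2149 counts in the PKP2 and vector libraries, a ratio of 1.55. These genes are near B2M in ratio by the rule that chose them, and SEPTIN11 (1.52) and KIAA1191 (1.37) were farther from it. Likeness over 2 libraries is a single difference and separates few patterns.

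The heavy chains, which pair with the B2M protein, lay on both sides of 0. HLA-B (ENSG00000234745), a classical heavy chain that shows peptides to cytotoxic T cells, had 775 counts in the PKP2 library and 904 in the vector library, or 38.5 and 38.1 CPM, a log2 ratio of 0.01 (interval -0.13 to 0.15). HLA-C (ENSG00000204525), a classical heavy chain that is also read by receptors of natural killer (NK) cells, had 841 counts in the PKP2 library and 807 in the vector library, or 41.8 and 34.0 CPM, a ratio of 0.30 (interval 0.15 to 0.44). HLA-C was thus the heavy chain with the highest ratio, and its counting interval was above 0 while that of HLA-B took in 0.

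HLA-E (ENSG00000204592), a non-classical heavy chain that presents leader peptides of other class I chains to an inhibitory receptor of NK cells, had 1680 counts in the PKP2 library and 2168 in the vector library. Its levels were 83.4 CPM in the PKP2 library and 91.4 CPM in the vector library, a ratio of -0.13 (interval -0.22 to -0.04). HLA-F (ENSG00000204642), a non-classical heavy chain found largely inside resting cells, was the scarcest heavy chain member at 121 and 184 counts in the PKP2 and vector libraries, or 6.01 and 7.76 CPM, with a ratio of -0.37 (interval -0.71 to -0.03). Both ratios were below 0 as counted, but against the 100 nearest genes by transcript GC content and length HLA-E was at -0.04 and HLA-F at -0.15, and a correction along the GC trend put HLA-E at 0.01 and HLA-F at -0.14. These corrected values are no larger than the counting error of each gene, so no direction is given for either.

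Summed, HLA-B, HLA-C, HLA-E and HLA-F had 3417 counts in the PKP2 library and 4063 in the vector library, a ratio of -0.01 (interval -0.08 to 0.05). That sum is within counting error of 0 only as counted: its ratio was 0.15 against the nearest genes and 0.20 with the GC correction, above the counting interval but far below the ratio of B2M.

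**Figure D3:**
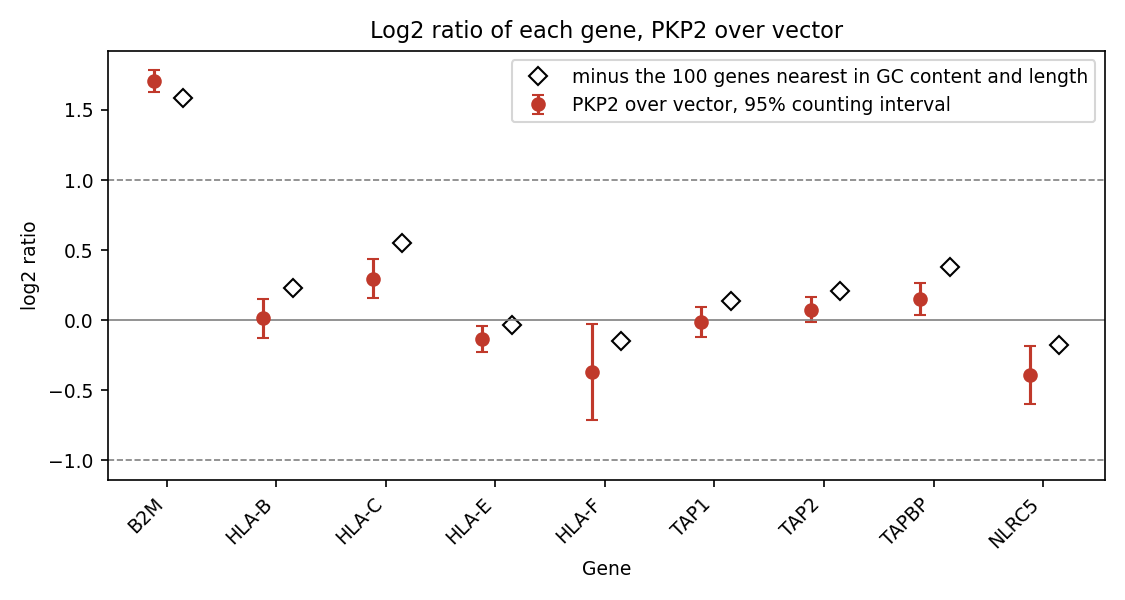
Log2 ratio, PKP2 over vector, of the 9 members, with exact 95% binomial counting intervals (circles) and the same ratio minus the median of its 100 nearest genes by transcript GC content and length (diamonds). Dashed lines mark 2-fold. B2M is past the upper line at 1.71 and at 1.59 after the subtraction, and every other gene shown is between the dashed lines by both measures.

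The balance of light to heavy chain transcripts does not depend on how the libraries were scaled, because both are read in the same library. In the PKP2 library there were 1.52 B2M counts per count of HLA-B, HLA-C, HLA-E and HLA-F together, and in the vector library 0.462. The quotient was 3.29-fold higher in the PKP2 library, a log2 difference of 1.72 (exact conditional interval 1.62 to 1.82). Against single members, the log2 difference of B2M was smallest for HLA-C at 1.41 and largest for NLRC5 at 2.10, so B2M was higher relative to each of its partners.

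HLA genes are alike in sequence, which limits the counts of single heavy chains. HLA-B shares 12.6% of its 31-base stretches with other listed genes and HLA-C 16.6%, most of it with each other, and an annotated HLA-B transcript overlaps HLA-C on the same strand. Summed over both genes, there were 1616 counts in the PKP2 library and 1711 in the vector library, a ratio of 0.15. HLA-E shares 11.5% and HLA-F 12.3%, the second mostly with the antisense gene HLA-F-AS1, which had 50 and 59 counts in the PKP2 and vector libraries.

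The genes that load peptide had ratios near 0. TAP1 (ENSG00000168394) had 1338 counts in the PKP2 library and 1591 in the vector library, or 66.4 and 67.1 CPM, a ratio of -0.01 (interval -0.12 to 0.09). TAP2 (ENSG00000204267), the other transporter subunit, had 2014 counts in the PKP2 library and 2252 in the vector library, or 100.01 and 94.9 CPM, a ratio of 0.08 (interval -0.01 to 0.16). The transporter subunits kept a similar balance, with 0.664 TAP1 counts per TAP2 count in the PKP2 library and 0.706 in the vector library, a log2 difference of -0.09 (interval -0.23 to 0.05). TAPBP (ENSG00000231925) had 1221 counts in the PKP2 library and 1294 in the vector library, or 60.6 and 54.5 CPM, a ratio of 0.15 (interval 0.04 to 0.27). Of these genes TAPBP alone had a counting interval that left out 0.

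TAP2 shares 31.7% of its 31-base stretches with ENSG00000250264, a gene that overlaps it on the same strand and had 6 counts in the PKP2 library and 42 in the vector library. Summed over both, the ratio was 0.05, so adding the counts given to the overlapping gene changes the value for TAP2 little. Any reads of shared stretches that were left out of both genes would not show in this sum. TAP1 shares 13.9%, mostly with PSMB8-AS1, which runs on the opposite strand and had 12 and 24 counts in the PKP2 and vector libraries.

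NLRC5 (ENSG00000140853), which acts on class I promoters as part of a larger complex, had 323 counts in the PKP2 library and 499 in the vector library, or 16.0 and 21.0 CPM. Its ratio of -0.39 (interval -0.60 to -0.19) was the lowest of the 9 members. The transactivator and the light chain gene thus lay at opposite ends of the list as counted, though the intervals of NLRC5 and HLA-F overlapped. Against its nearest genes NLRC5 was at -0.17, and with the correction along the GC trend at -0.15. These values are no larger than its counting error, so no direction is given for NLRC5. As counted, intervals were wholly above 0 for 3 members (B2M, HLA-C and TAPBP) and wholly below 0 for 3 (HLA-E, HLA-F and NLRC5). Across all genes at the count minimum 25.9% had an interval wholly above 0 and 28.8% wholly below 0, so intervals that leave out 0 were common.

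Levels between genes are compared per kilobase of transcript, with lengths of the APPRIS principal transcript in GENCODE. Of the 9 members in the PKP2 library, B2M came first at 152 CPM per kilobase, before TAP2 at 40.1, TAPBP and HLA-E at 32.1 each, HLA-C at 27.2, HLA-B at 24.9, TAP1 at 22.5, HLA-F at 3.67 and NLRC5 at 2.35 CPM per kilobase. In that order neighbouring intervals overlapped for TAPBP with HLA-E, for HLA-C with HLA-B and for HLA-B with TAP1. In the vector library B2M came first of the 9 at 46.5 CPM per kilobase, before TAP2 at 38.0 and HLA-E at 35.1, whose intervals overlapped. TAPBP at 28.9, HLA-B at 24.6, TAP1 at 22.7 and HLA-C at 22.1 CPM per kilobase came next, the last 3 with overlapping neighbours, and HLA-F at 4.74 and NLRC5 at 3.08 were last. B2M thus led the members in both libraries, by far in the PKP2 library. Its lead over TAP2 in the vector library was small only with the longer of its principal transcripts, which was used here. B2M has principal transcripts of 1705 and 943 bases. Over the shorter one it stood at 274 CPM per kilobase in the PKP2 library and 84.0 in the vector library, against 38.0 for TAP2 in the vector library. How reads of HLA alleles that differ from the reference were treated is not stated, so the levels of HLA genes are less certain than those of the other members.

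Ratios in these libraries went down with the GC content of transcripts. Over 11610 genes averaging 100 counts or more, Spearman's rho was -0.61 across genes, which share the 2 libraries and are not independent replicates. Their median ratio was 0.25 in the 1161 lowest by GC content and -0.47 in the 1161 highest. B2M has a GC content of 39.4%, and the other members range from 54.8% (HLA-E) to 60.2% (HLA-C). B2M and the other members thus lie at different parts of this trend, B2M at lower GC content.

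**Figure D4:**
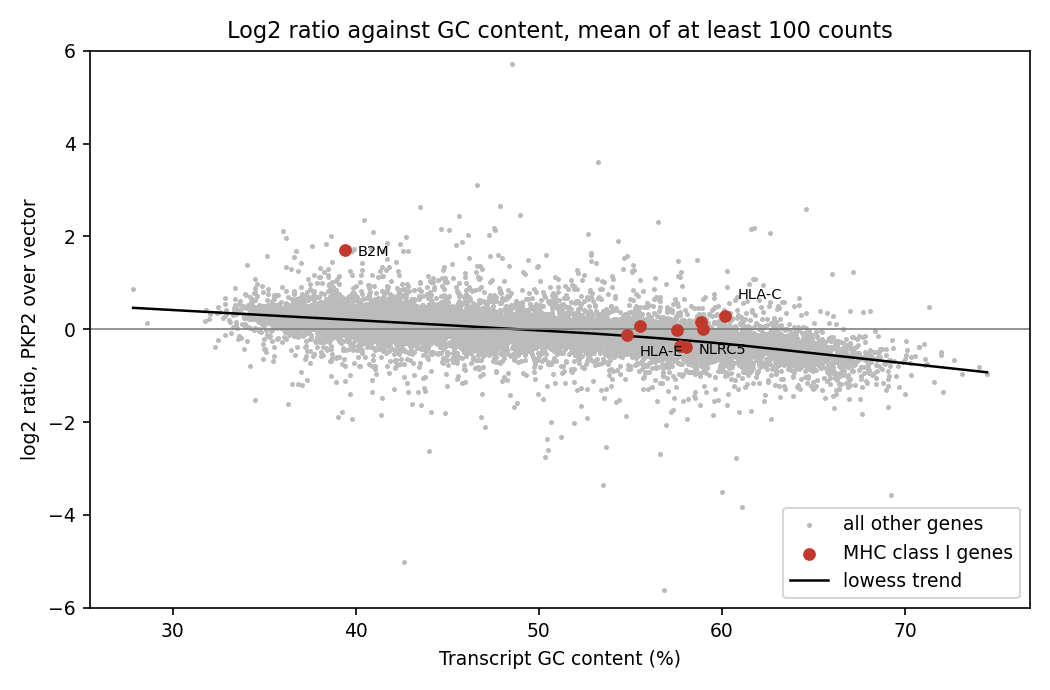
Log2 ratio, PKP2 over vector, against transcript GC content in percent, with 1 point per gene averaging 100 counts or more, the 9 members in red and a lowess curve in black. B2M at 39.4% GC lies far above the curve, which is at 0.21 there, and the other members cluster between 54.8% and 60.2% GC where the curve is below 0. The axis leaves out 1 point.

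Against the median of its 100 nearest genes by GC content and length, B2M had a log2 ratio of 1.59, and it remained the only member past 2-fold. After this subtraction 2.44% of all genes were 2-fold higher or more and 3.47% were 2-fold lower or more. The values of the partners moved up: HLA-C was at 0.55, TAPBP at 0.38, HLA-B at 0.23, TAP2 at 0.21 and TAP1 at 0.14. HLA-E was at -0.04, HLA-F at -0.15 and NLRC5 at -0.17, so these 3 of the 9 members stayed below 0 by small amounts, and 51.5% of all genes were below 0 by this measure. The 8 members other than B2M had a median of 0.00 without the subtraction and 0.17 with it. The distance between B2M and that median thus narrowed but stayed over 2-fold. HLA-C came closer: with the correction along the GC trend B2M was at 1.497 and HLA-C at 0.61, less than 2-fold apart. The log2 difference between B2M and the 4 summed heavy chains was 1.43 against the nearest genes and 1.29 with the correction along the GC trend.

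Among the other genes of the pathway, listed by role, CREB1 was the only one apart from class II genes past 2-fold. In the list of factors that bind class I promoters, 1 of 8 measured genes was 2-fold higher or more and none lower, with a median of 0.05. CREB1, a transcription factor that binds CRE sites, had 1964 counts in the PKP2 library and 531 in the vector library, a ratio of 2.12 (interval 1.98 to 2.26). Its ratio was 1.81 against its nearest genes by GC content and length, and it shares 1.56% of its 31-base stretches. RFX5, a DNA-binding subunit of the RFX complex, had 2329 and 3441 counts in the PKP2 and vector libraries, a ratio of -0.33. RFXANK, another RFX subunit, was at -0.27 as counted and at 0.03 against its nearest genes, and 20.5% of its 31-base stretches also occur elsewhere among the listed genes. RFXAP, the third, was at 0.19 with an interval of -0.12 to 0.49 that takes in 0. CIITA, the class II transactivator, was not analysed here.

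**Figure D5:**
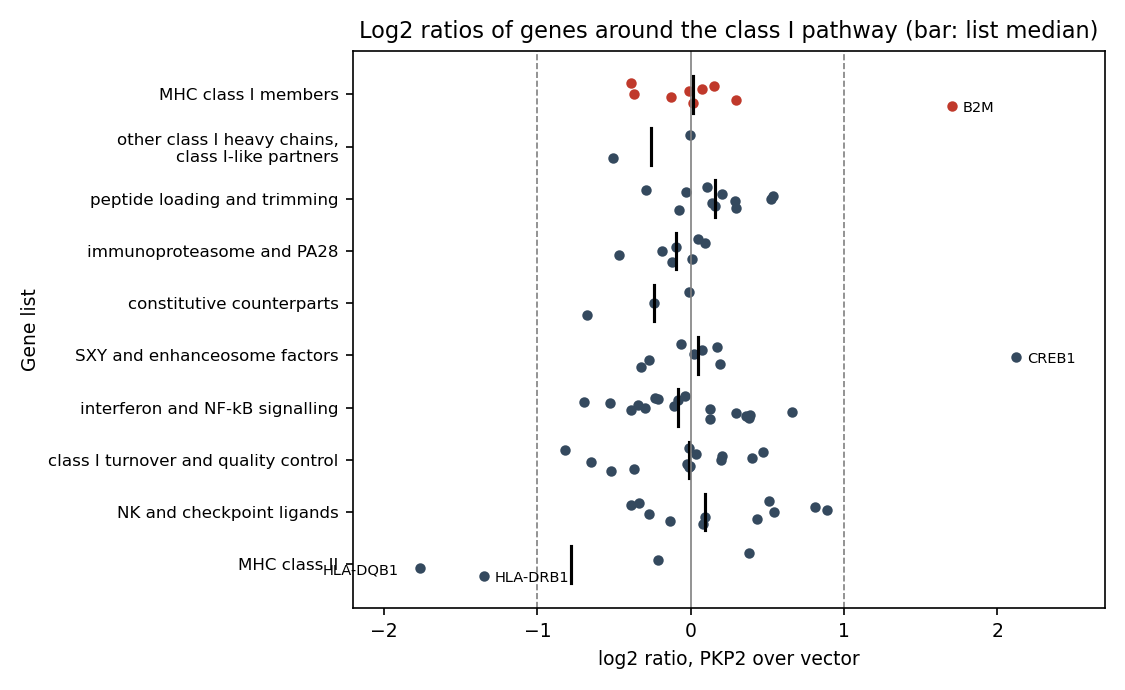
Log2 ratio, PKP2 over vector, of each gene with a mean of at least 10 counts in the lists around class I presentation, with the members in red and the median of each list as a black bar. Dashed lines mark 2-fold. Genes past these lines are named: B2M at 1.71 and CREB1 at 2.12 on the higher side, and HLA-DRB1 and HLA-DQB1 on the lower side.

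Among other partners of B2M in the list, 2 genes are reported and neither was past 2-fold, with a median of -0.26. MR1, which presents vitamin B metabolites to a class of innate-like T cells, had 260 counts in the PKP2 library and 436 in the vector library, a ratio of -0.51 (interval -0.74 to -0.28). HFE, a regulator of iron uptake, was at -0.01 with 351 and 415 counts in the PKP2 and vector libraries. The interval of HFE, -0.21 to 0.20, takes in 0, so no direction is given for it.

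All 11 genes of peptide loading and trimming lay within 2-fold, 8 above and 3 below 0, with a median of 0.16, and of 0.04 against their nearest genes by GC content and length. LNPEP, an aminopeptidase of endosomes that trims peptides for cross-presentation, had 3020 counts in the PKP2 library and 2455 in the vector library. Its ratio was 0.54 (interval 0.46 to 0.61) as counted and 0.28 relative to its nearest genes. TAPBPL, the tapasin relative that edits peptides, was at 0.52 with only 72 and 59 counts, and at 0.77 relative to its nearest genes. CANX, the lectin chaperone calnexin, was at 0.29 as counted and at 0.12 relative to its nearest genes. PRKCSH, a subunit of the glucosidase that trims glycans ahead of the lectin chaperones, was the lowest at -0.29, and at -0.00 relative to its nearest genes.

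The proteasome genes that shape the peptide supply were within 2-fold too. Of the 7 immunoproteasome and PA28 genes, 3 were above and 4 below 0, with a median of -0.09, and PSMB10, an inducible catalytic subunit, was the lowest at -0.47 (146 and 238 counts in the PKP2 and vector libraries). PSMB10 was at -0.16 against its nearest genes, overlaps ENSG00000261884 on the same strand and shares 30.2% of its 31-base stretches with it. PSMB8, an inducible catalytic subunit encoded next to TAP1, was at -0.12, and PSME1 and PSME2, the PA28 activator subunits, were at -0.19 and -0.09. Relative to their nearest genes PSMB8 was at 0.03 and PSME2 at 0.09, so no direction is given for them. Of the 3 constitutive catalytic subunits PSMB5, the one PSMB8 replaces, was the lowest with 2744 counts in the PKP2 library and 5176 in the vector library, a ratio of -0.68 (interval -0.75 to -0.61). PSMB6 was at -0.24 and PSMB7 at -0.01. Relative to their nearest genes PSMB5 was at -0.59, PSMB6 at -0.02 and PSMB7 at 0.04.

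Of 17 measured genes of interferon and NF-kB signalling, 7 were above and 10 below 0 and none was past 2-fold, with a median of -0.08. JAK2, a kinase of the interferon gamma receptor, was the highest at 0.66 (384 and 286 counts in the PKP2 and vector libraries). RELA, the NF-kB subunit p65, was the lowest at -0.70 with 655 counts in the PKP2 library and 1250 in the vector library. Relative to their nearest genes JAK2 was at 0.44 and RELA at -0.46. IRF9, which joins STAT proteins in the interferon-activated complex, was at -0.53 with 102 and 173 counts in the PKP2 and vector libraries. Of its 31-base stretches 45.2% also occur in ENSG00000259529, a gene on the same strand that overlaps it and had 96 and 170 counts, so the value of IRF9 is uncertain. TYK2, a kinase of type I interferon receptors, was at -0.39 (-0.05 against its nearest genes by GC content and length).

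Genes of turnover and quality control had a median of -0.01, with 5 of 13 above 0 and none past 2-fold. SPPL2B, an intramembrane protease, was the lowest at -0.82 (281 and 584 counts in the PKP2 and vector libraries), and at -0.31 relative to its nearest genes. Its relative SPPL2A was the highest at 0.47 as counted, and at 0.22 relative to its nearest genes. SYVN1, a ubiquitin ligase of the endoplasmic reticulum, was at -0.65, and at -0.42 relative to its nearest genes. STUB1, a ligase that works with chaperones, was at -0.52 as counted and at -0.10 relative to its nearest genes, and shares 36.2% of its 31-base stretches with JMJD8 on the opposite strand. Among 11 ligands read by NK cells or checkpoint receptors 7 were above and 4 below 0, with a median of 0.09. RAET1G, a ligand of an activating NK receptor with 26.7% of its 31-base stretches found in another listed gene, was at 0.89 with only 22 and 14 counts in the PKP2 and vector libraries, an interval of -0.14 to 1.97 that takes in 0. CD274, which encodes the checkpoint ligand PD-L1, was at 0.81 with 73 and 49 counts (interval 0.27 to 1.36), RAET1E at 0.54 with 94 and 76, and CD47, a signal against phagocytosis, at 0.51 with 1126 and 931.

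Class II genes were scarce: the 7 listed summed to 98 counts in the PKP2 library and 134 in the vector library. Of the 4 at the count minimum, 2 were at least 2-fold lower, with a median of -0.78, but on few counts. HLA-DRB1 had 7 counts in the PKP2 library and 21 in the vector library, a ratio of -1.35 (interval -2.83 to -0.06), and HLA-DQB1 had 5 and 20, a ratio of -1.76 (interval -3.53 to -0.31). HLA-DMA, an editor of class II peptides, was at -0.22 and HLA-DOB, its modulator, at 0.38, both with intervals that take in 0.

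Markers of other cell types that carry class I were few. Of 12 leukocyte markers 3 were listed, which summed to 1.24 CPM in the PKP2 library and 4.13 CPM in the vector library, and CD14 made up most of it with 23 and 90 counts. PTPRC, CD3E and MS4A1 were not analysed here. Of 5 endothelial markers 2 were listed, at 0 counts in the PKP2 library and 4 in the vector library. Of 7 fibroblast markers 4 were listed, which summed to 30.3 CPM in the PKP2 library and 52.3 CPM in the vector library, most of it COL3A1. Of these 4, COL1A1 and COL3A1 were at least 2-fold lower, while PDGFRB was at 1.14 (interval 0.80 to 1.49) with 208 counts in the PKP2 library and 111 in the vector library. The part of these markers in the values of the class I genes was not tested. In bulk RNA a change in the share of cells and a change in RNA per cell cannot be told apart.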

How the data were processed

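The deposited values are reads counted by the authors per Ensembl gene identifier, not normalized, per the file headers. These deposited counts are treated as estimated counts, for the decimal in 1 damaged row, and none needed rounding. In each of the 2 deposited files 2 rows without a readable gene count were left out. Libraries were made from total RNA with a TruSeq kit, per the labels' protocols, and the submitters' processing notes name Bowtie 0.12.2 with GRCh37 and hg19. Which program counted the reads, with which annotation, whether it used strand and how it split shared reads is not stated by any source at hand.

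Library totals were scaled by edgeR's TMM factors (0.991 for PKP2 and 1.01 for vector; edgeR 4.0.16, R 4.3.3), for scaling only. Ratios had no pseudocount, with exact binomial intervals. The libraries carry no stated molecular identifiers, so reads may be PCR copies and intervals cover counting error only. With 1 library per group no p-value was computed. The computation of ratios and intervals was checked on simulated Poisson counts of the same means. The intervals assume such counts, so this check says nothing about the spread between replicate libraries.

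GC content, length, overlaps and shared 31-base stretches came from GENCODE release 29, matched to the counts by gene identifier. Overlaps were found from the exon coordinates of that release. Of genes at the count minimum 99.4% had a transcript. GC trends were lowess curves (fraction 0.3; statsmodels 0.14.6) or the median of the 100 nearest genes, both over genes averaging 100 counts or more. Other steps used Python 3.11.15, SciPy 1.17.1, pandas 2.3.3, NumPy 2.4.6 and matplotlib 3.10.9.

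The members and the lists were chosen with earlier results of these data known. Named genes were the members, PKP2, up to 4 genes per list farthest from 0, and the 5 most like B2M. A gene of the lists is not reported here. Other genes named, such as overlapping genes and absent markers, were looked up after values were seen. Alternatives were other scalings (DESeq2 1.42.0 size factors among them), pseudocounts, count minimums, thresholds and GC corrections.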

Additional observations from a re-analysis of the deposited data

How the results depend on the processing

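B2M kept its direction and stayed past 2-fold under every scaling, pseudocount and correction tried, with a log2 ratio of 1.497 to 1.73. It was 1.497 with the GC correction, 1.59 against the nearest genes in GC content and length, and 1.58 when those were found with the shortest principal transcripts. Its difference from the 4 summed heavy chains was 1.29, 1.43 and 1.42 under these settings. The use of shortest transcripts was chosen after seeing the data. The member counts of 1 higher and 0 lower held under each alternative run.

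Of 64 recomputed ratios of the other 8 members, 44 stayed within their counting interval and 20 moved beyond it, and none of these members reached 2-fold. Every scaling and pseudocount kept within the interval, and each of the 20 came with a GC correction. Under the GC corrections only HLA-F, and HLA-E with the shortest principal transcripts, stayed within the interval. HLA-B (-0.01 to 0.28), TAP1 (-0.04 to 0.21) and HLA-E (-0.16 to 0.01) crossed 0. The background of all genes moved more: genes at least 2-fold higher or lower numbered 394 and 737, but 231 and 393 with 0.5 CPM added, 106 and 81 with 5 CPM added, 194 and 304 at a mean of at least 50 counts, and 1857 and 2800 with no filter. At 1.5-fold they numbered 1098 and 2060, and at 3-fold 114 and 251. Other scalings shifted all ratios by -0.03 to 0.02. No paired analysis was possible because each group has 1 library, and no library could be left out. Depth limits HLA-F, the class II genes and the scarce NK ligands.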
